A study of Mus musculus with 21 samples.

Results

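Expression was examined for 10 genes of Toll-like receptor signaling: the receptors Tlr1, Tlr2, Tlr3, Tlr4, Tlr7, Tlr9 and Tlr13, the co-receptors Cd14 and Ly96, and the adaptor Myd88. They were chosen by gene symbol, through the GENCODE M21 annotation of the mouse genome GRCm38, from 45706 gene identifiers, and all 10 were among the 23815 genes tested. Earlier results of these data were known when the 10 genes were chosen. The RNA came from cells sorted from the lesion area of male C57BL/6 mice aged 17 to 24 weeks, with the brain samples of 2 mice pooled at random for each library and 3 libraries in each of 7 groups. Sham controls were WT mice that had a craniotomy without an impact, and their microglia (CD45low CD11b+) form 1 group. After controlled cortical impact (CCI), a model of traumatic brain injury, microglia of WT mice and of Fgg γ390–396A mice were sorted at 1 d and again in other mice at 7 d. Infiltrating myeloid cells (CD45hi CD11b+, labelled as macrophages by the depositors) came from both genotypes at 1 d post-CCI only. Fgg γ390–396A mice carry a mutated fibrinogen gamma chain in every cell, so that fibrin still forms but lacks its binding site for the integrin CD11b/CD18. No sham group of this genotype was analysed, so both genotypes were set against the same WT sham libraries. The titles of the sham libraries give no day after surgery, and the same libraries were the baseline at 1 d and at 7 d.

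Toll-like receptors recognize microbial molecules and molecules released from damaged tissue. TLR1, TLR2 and TLR4 sit on the cell surface, where TLR2 pairs with TLR1 to bind lipoproteins, and TLR4 binds lipopolysaccharide through MD-2, the product of Ly96, to which CD14 delivers it. TLR3, TLR7, TLR9 and TLR13 sit in endosomes and bind double-stranded RNA, single-stranded RNA, unmethylated CpG DNA and bacterial ribosomal RNA, respectively. MyD88 carries the signal of all these receptors except TLR3, which uses TRIF. In the brain, microglia express most of these receptors.

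On GRCm38 the surface receptor genes lie at chr5:64924679-64933563 (Tlr1, minus strand), chr3:83836272-83841767 (Tlr2, minus strand) and chr4:66827584-66930284 (Tlr4, plus strand). The endosomal receptor genes lie at chr8:45395665-45411080 (Tlr3, minus strand), chr9:106222598-106226883 (Tlr9, plus strand), chrX:167304929-167330558 (Tlr7, minus strand) and chrX:106143204-106160493 (Tlr13, plus strand), so Tlr7 and Tlr13 are X-linked in these male mice. Ly96 lies at chr1:16688051-16709611 on the plus strand and Myd88 at chr9:119335934-119341411 on the minus strand. All 10 are annotated as protein-coding. Counts were taken over whole genes and not over single exons.

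Upstream sequences are shown for Tlr2, Tlr1 and Tlr9, because Tlr2 and Tlr1 were higher and Tlr9 lower in microglia of both genotypes at 1 d post-CCI. RefSeq promoter windows of GRCm38.p6 were matched for 6 of the 10 genes, and the 250 bases before each start site were searched on both strands for 5 motifs. Bases that GENCODE M21 annotates as exon were not printed. For Tlr2 the printed bases are chr3:83841768-83841858 on the minus strand, for Tlr1 chr5:64933564-64933808 on the minus strand, and for Tlr9 chr9:106222348-106222597 on the plus strand. Capitals mark motif matches, written 5′ to 3′ along the gene's strand.
Tlr2: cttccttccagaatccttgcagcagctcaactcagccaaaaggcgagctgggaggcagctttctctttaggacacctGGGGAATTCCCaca
Tlr1: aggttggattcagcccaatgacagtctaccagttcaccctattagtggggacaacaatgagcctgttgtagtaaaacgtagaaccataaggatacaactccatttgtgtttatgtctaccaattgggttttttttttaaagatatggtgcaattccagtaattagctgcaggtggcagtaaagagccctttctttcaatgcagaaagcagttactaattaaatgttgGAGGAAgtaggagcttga
Tlr9: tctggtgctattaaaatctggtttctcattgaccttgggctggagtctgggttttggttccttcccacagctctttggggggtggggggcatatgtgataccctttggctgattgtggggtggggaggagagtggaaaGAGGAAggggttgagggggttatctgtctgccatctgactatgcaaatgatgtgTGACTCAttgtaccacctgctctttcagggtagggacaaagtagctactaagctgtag
In Tlr2 the capitals are a pair of overlapping kappaB matches that begin 173 bases before the RefSeq start site. In Tlr1 they are an ETS core, GAGGAA, 23 bases before the start. In Tlr9 they are an ETS core 112 bases before the start and an AP-1 match, TGANTCA, 58 bases before it. A kappaB match also lay 211 bases before the RefSeq start of Tlr3, which was called lower in WT microglia at 1 d. That match is at chr8:45410582-45410591, within the Tlr3 gene as GENCODE M21 annotates it. A GAS match lay 228 bases before a second start site of Tlr1, also within the annotated gene. An ETS core lay 83 bases before the start site of Tlr13. Of 32851 mouse promoter windows of this length, 3.90% held a kappaB match, 6.75% an AP-1 match and 23.3% an ETS core. Bases of Myd88 at chr9:119340042-119340268 on the minus strand are shown because 2 motifs named for interferon responses overlap there, GAS (TTCNNNGAA) and ISRE (GAAA, any 2 bases, GAAA), which are in capitals.
Myd88: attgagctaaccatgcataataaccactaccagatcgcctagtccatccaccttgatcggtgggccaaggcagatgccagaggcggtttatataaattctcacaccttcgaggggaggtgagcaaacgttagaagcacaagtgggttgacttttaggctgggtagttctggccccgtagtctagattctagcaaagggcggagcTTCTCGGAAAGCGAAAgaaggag
Of the windows, 7.02% held a GAS match and 2.98% an ISRE match. These matches describe letters and not binding.

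Libraries held between 18896957 and 51875767 counts (median 27001646), of which ribosomal RNA genes took 43.0% to 58.5%. The 10 genes had between 80 and 38873 counts in each library, and none was at 0. Levels are given in CPM, that is counts relative to the TMM-scaled library size. Gene length was already divided out of the deposited counts, so CPM levels may be compared between genes within a library. Fgg had 0 counts in all 12 libraries of WT and sham mice. In mutant mice it had 6, 2 and 4 counts in microglia at 1 d and 3, 3 and 14 at 7 d. Mutant myeloid libraries had 0, 0 and 1. The presence of Fgg counts thus went with the genotype label in microglia and not in myeloid cells. These counts are few and do not show the mutation itself. Itgam, which encodes CD11b, was between 229 and 455 CPM in every library. The 9 microglia markers summed to 10155 to 11323 CPM in sham controls, 2755 to 4269 in WT and 4834 to 6290 in mutant microglia at 1 d, 6010 to 6877 and 7106 to 8238 at 7 d, and 345 to 964 in the myeloid cells. The 8 monocyte markers summed to 8.70 to 51.1 CPM in sham controls, 107 to 189 in WT and 47.1 to 91.7 in mutant microglia at 1 d, 32.9 to 59.7 at 7 d over both genotypes, and 1584 to 2201 in the myeloid cells. The myeloid cells also held markers of border macrophages (1334 to 2209 CPM summed over 6 genes) and of neutrophils (405 to 1123 CPM over 9 genes). In the microglia libraries these sums were 4.30 to 227 CPM and 56.3 to 311 CPM. Against microglia, 4 of the 9 neutrophil and 3 of the 6 border macrophage markers were called higher in WT myeloid cells, and 5 and 4 in mutant ones. In microglia the neutrophil sum was 159 to 307 CPM in sham controls. At 1 d it was 56.3 to 128 CPM in WT and 83.5 to 149 CPM in mutant mice. The sort labelled as macrophages thus held markers listed for further cell types, and the microglia sort held the same markers at lower sums. Which cells carried them was not tested.

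In sham microglia the highest level was that of Tlr7, at 303 ± 73.9 CPM (SD, n = 3), apart from every other gene. Tlr13 (134 ± 30.2 CPM), Tlr4 (120 ± 24.2 CPM), Cd14 (86.7 ± 17.4 CPM), Tlr9 (83.3 ± 12.1 CPM), Tlr3 (63.3 ± 6.95 CPM), Ly96 (52.6 ± 13.2 CPM), Tlr2 (31.8 ± 8.79 CPM) and Tlr1 (31.0 ± 3.81 CPM) followed. Each of these overlapped its neighbour in that order over the libraries. Myd88 was the lowest at 10.5 ± 1.65 CPM, apart from Tlr1. At 1 d post-CCI the order opened with Cd14 in the microglia of both genotypes, at 903 ± 463 CPM in WT and 516 ± 176 CPM in mutant mice, apart from Tlr7 in second place. Tlr7 stood first again at 7 d in both genotypes, apart from the next gene. Myd88 remained the lowest of the 10 in all 5 microglia groups, whereas Tlr3 was the lowest in both myeloid groups.

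**Figure D1:**
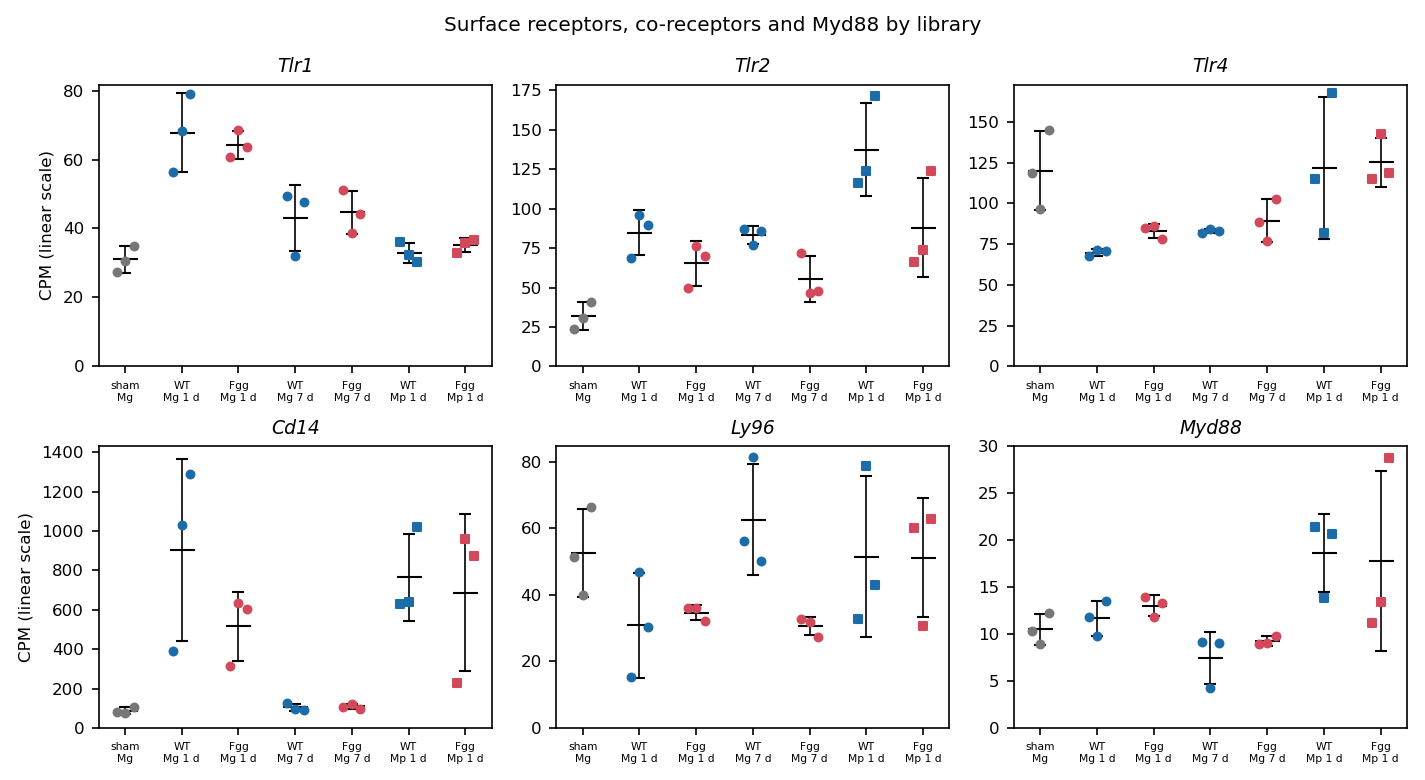
Levels in CPM of the surface receptors, co-receptors and Myd88 by group, on a linear axis from 0 in each panel. Points are libraries (squares for myeloid cells), bars the mean and SD of 3 libraries, and the panel of Cd14 shows the rise at 1 d with its wide spread between libraries.

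The first question was how receptor expression in microglia responds to injury. At 1 d post-CCI, Cd14, Tlr2 and Tlr1 rose in WT microglia and Tlr9, Tlr3 and Tlr4 fell. Fold changes are on the log2 scale with their standard error (SE). Each adjusted p is from edgeR's quasi-likelihood test, adjusted by Benjamini and Hochberg's method over all 23815 genes, and a gene was called under 0.05 for injury and cell type. These 6 of the 10 genes were called, against 16.7% of all genes tested (10.7% higher and 5.97% lower). With an absolute log2 fold change above 1.5 as a further bar, 2 genes were called, Cd14 and Tlr9, against 7.34% of all genes. For the 6 genes, no sham library lay within the range of the injured ones, which held for 33.8% of all genes. The median log2 fold change of the 10 genes was 0.00, and that of all genes tested was also 0.00. For genes with a mean of at least 5 CPM it was 0.16. Shares of all genes, here and below, include genes with few counts, whereas the 10 genes had at least 80 counts in every library. The shares were not taken over genes of like level. As elsewhere in these bulk samples, fewer cells that carry a transcript and less of it per cell cannot be told apart, and p-values measure the spread between libraries of pooled brains.

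Among the surface receptors, Tlr2 was at 23.7, 30.5 and 41.1 CPM in sham libraries 1 to 3 and at 68.7, 96.2 and 89.5 CPM in WT libraries at 1 d. Every WT library lay above every sham library, with a log2 fold change of 1.42 (SE 0.26, adjusted p = 0.000684). Tlr1, the partner of Tlr2, was at 27.5, 30.6 and 35.0 CPM in sham and 56.3, 68.2 and 79.0 CPM in WT libraries. Its groups did not overlap either, and its log2 fold change was 1.13 (SE 0.18, adjusted p = 0.000126). Tlr4, the lipopolysaccharide receptor, was at 119, 96.7 and 145 CPM in sham and at 67.5, 71.5 and 70.7 CPM in WT libraries. All WT libraries of Tlr4 were below the sham libraries, with a log2 fold change of -0.78 (SE 0.20, adjusted p = 0.0106). Without sham library 3, the highest for Tlr4, its log2 fold change was -0.62 and the adjusted p 0.0627.

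Cd14, which hands lipopolysaccharide to the TLR4 complex, was at 78.4, 75.0 and 107 CPM in sham and at 391, 1028 and 1291 CPM in WT libraries at 1 d. The lowest injured library of Cd14 was above all sham libraries and far below the other two, and the log2 fold change was 3.38 (SE 0.47, adjusted p = 3.52e-05). Ly96, whose product MD-2 binds the lipid itself, was not called, and its level was 51.4, 40.1 and 66.4 CPM in sham and 15.4, 47.0 and 30.4 CPM in WT libraries, which overlap. Its log2 fold change was -0.77 (95% interval -1.51 to -0.02, adjusted p = 0.167). Myd88 was between 8.96 and 12.2 CPM in sham and between 9.73 and 13.5 CPM in WT libraries. Its log2 fold change of 0.15 had a 95% interval of -0.51 to 0.80.

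Among the endosomal receptors, Tlr9, which binds CpG DNA, was at 70.1, 85.8 and 93.9 CPM in sham and at 28.2, 20.4 and 16.4 CPM in WT libraries at 1 d. All WT libraries of Tlr9 lay below the sham libraries, with a log2 fold change of -1.94 (SE 0.34, adjusted p = 0.000406). Tlr3, the receptor for double-stranded RNA, was at 60.2, 58.4 and 71.2 CPM in sham and 24.2, 25.8 and 20.8 CPM in WT libraries. Its groups did not overlap, and its log2 fold change was -1.42 (SE 0.28, adjusted p = 0.00117). The 2 receptors for single-stranded and ribosomal RNA were not called: Tlr7 had a log2 fold change of -0.14 (95% interval -0.57 to 0.29) and Tlr13 of 0.24 (-0.12 to 0.61). The fall in endosomal receptors was thus called for 2 of the 4. Beside these values, 7 of the 9 microglia markers were also called lower and 2 of the 8 monocyte markers higher in WT microglia at 1 d, and their part in the result was not tested.

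**Figure D2:**
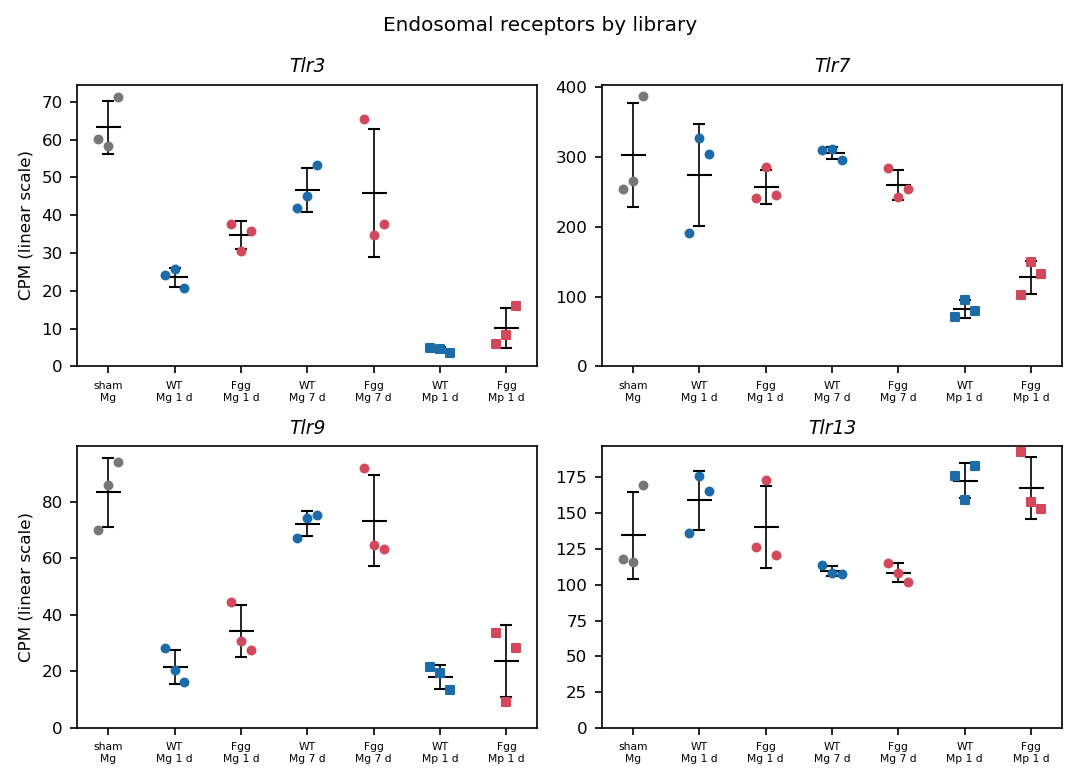
Levels in CPM of the endosomal receptors Tlr3, Tlr7, Tlr9 and Tlr13 by group, on a linear axis from 0 in each panel. Points are libraries (squares for myeloid cells) and bars the mean and SD of 3 libraries, and Tlr3 and Tlr9 are below all sham libraries in WT microglia at 1 d.

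In Fgg γ390–396A microglia at 1 d, Tlr1, Tlr2 and Cd14 rose and Tlr9 fell against the same sham libraries. These 4 of 10 genes compare with 9.79% of all genes tested (7.6% higher and 2.19% lower). Groups did not overlap for 7 of the 10 (29% of all genes), the other 3 being Tlr3, Tlr4 and Ly96, which lay below the sham libraries. Cd14 was at 313, 632 and 602 CPM in the mutant libraries, with a log2 fold change of 2.57 (SE 0.45, adjusted p = 0.000706). Tlr1 was at 60.6, 68.6 and 63.6 CPM, with a log2 fold change of 1.05 (SE 0.18, adjusted p = 0.000458). Both genes were above sham in each mutant library.

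Tlr2 was at 49.4, 76.3 and 70.1 CPM in the mutant microglia at 1 d, all above sham, with a log2 fold change of 1.04 (SE 0.26, adjusted p = 0.013). The call of Tlr2 was lost without mutant library 2 (0.91, adjusted p = 0.0731) or 3 (0.98, 0.0532), and without sham library 1 (0.86, 0.0817) or 2 (1.01, 0.0555). Tlr9 was at 44.6, 30.8 and 27.4 CPM, all below sham, with a log2 fold change of -1.28 (SE 0.34, adjusted p = 0.0173). Its call was lost without mutant library 2 (-1.21, adjusted p = 0.0848) or 3 (-1.14, 0.0983), and without sham library 3 (-1.18, 0.0591). Tlr3 (-0.87, SE 0.28, adjusted p = 0.0556) and Tlr4 (-0.53, SE 0.20, adjusted p = 0.124) were not called. With DESeq2's size factors, which shift the median gene by -0.13 in this comparison, Tlr3 (-0.99, adjusted p = 0.0235) and Tlr4 (-0.66, adjusted p = 0.0461) were called too, so that 3 genes were higher and 3 lower instead of 3 and 1. In the mutant microglia 4 of 9 microglia markers were called lower and 1 of 8 monocyte markers higher, and their part in the result was not tested.

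**Figure D3:**
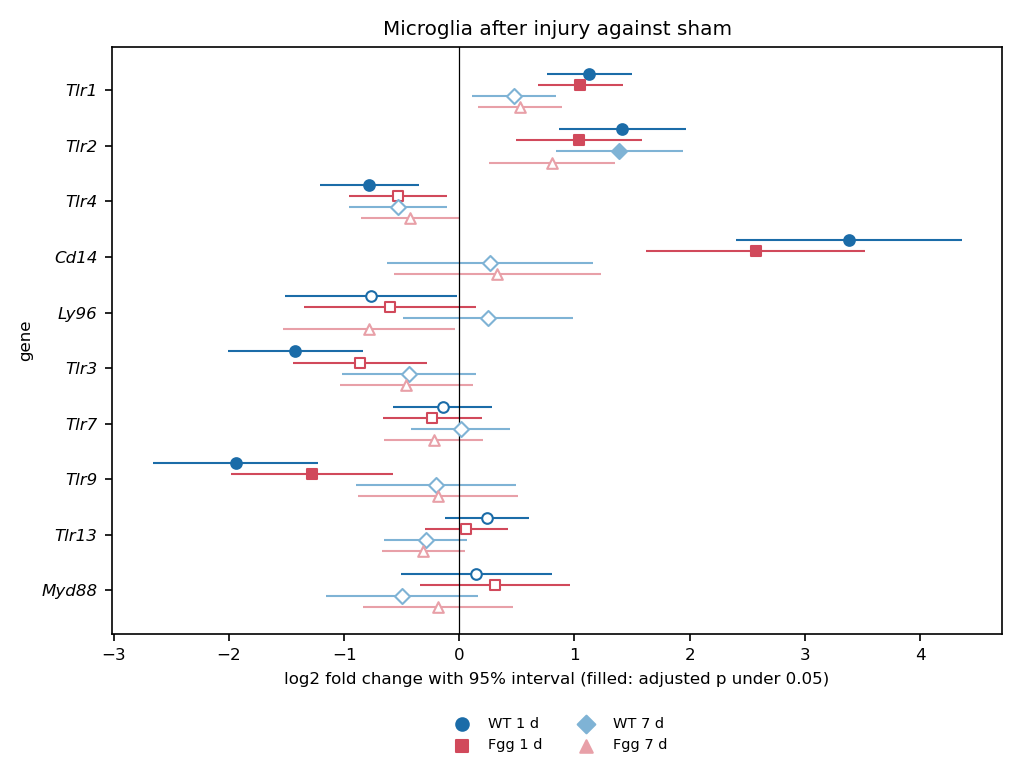
Log2 fold change against sham controls of the 10 genes in WT and Fgg γ390–396A microglia at 1 d and 7 d, with 95% intervals and filled points for an adjusted p under 0.05. At 1 d 6 points are filled in WT and 4 in mutant mice, and at 7 d that of Tlr2 in WT mice only.

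At 7 d post-CCI, Tlr2 was the 1 gene of the 10 called against sham in WT microglia, where 2.69% of all genes tested were called (2.42% higher and 0.265% lower). Its level was 87.4, 76.8 and 85.6 CPM, all above sham, with a log2 fold change of 1.39 (SE 0.26, adjusted p = 0.0047). Its partner Tlr1 was at 49.4, 32.1 and 47.8 CPM, which overlaps sham, with a log2 fold change of 0.47 (SE 0.18, adjusted p = 0.229). Cd14 was at 125, 94.5 and 93.3 CPM, with a log2 fold change of 0.27 (95% interval -0.63 to 1.16). Tlr9 (-0.20, 95% interval -0.90 to 0.49) and Tlr3 (-0.44, -1.02 to 0.14) were not called. Groups did not overlap for 4 of the 10 genes, as for 20.1% of all genes: Tlr2 above and Tlr3, Tlr4 and Tlr13 below sham. Beside these values, 1 of the 9 microglia markers was called lower in WT microglia at 7 d (6 at an unadjusted p under 0.05), and 1 of the 8 monocyte markers and 2 of the 6 astrocyte and oligodendrocyte markers were called higher. Their part in the result was not tested.

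In Fgg γ390–396A microglia at 7 d, edgeR called 0 of the 10 genes against sham, where 0.886% of all genes were called. At an unadjusted p under 0.05 there were 3 (Tlr2, Tlr1 and Ly96) against 7.59% of all genes, and DESeq2 called 0. Tlr2 was at 72.1, 46.7 and 47.6 CPM, all above sham, with a log2 fold change of 0.80 (95% interval 0.26 to 1.35, adjusted p = 0.257). Ly96 was at 32.6, 31.8 and 27.4 CPM, all below sham, with a log2 fold change of -0.78 (95% interval -1.53 to -0.04, adjusted p = 0.641). Groups did not overlap for 4 genes (15.6% of all genes), Tlr1 and Tlr2 above and Tlr13 and Ly96 below sham.

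Between 1 d and 7 d in WT microglia, Cd14 and Tlr1 fell and Tlr9 and Tlr3 rose. These 4 of 10 genes compare with 10.3% of all genes tested (3.7% higher and 6.6% lower), and groups did not overlap for 8 of the 10 (29.4% of all genes). Cd14 had a log2 fold change of -3.11 (SE 0.46, adjusted p = 0.00018). Tlr9 was at 67.2, 74.4 and 75.2 CPM at 7 d, all above the 1 d libraries, with a log2 fold change of 1.74 (SE 0.34, adjusted p = 0.00202). Tlr3 was at 41.9, 45.2 and 53.2 CPM at 7 d, with a log2 fold change of 0.99 (SE 0.28, adjusted p = 0.0266), and its call was lost when any 1 of the 6 libraries was left out, with adjusted p from 0.0527 to 0.164. Tlr1 had a log2 fold change of -0.65 (SE 0.18, adjusted p = 0.0188). The call of Tlr1 was lost without WT library 3 at 1 d (-0.58, adjusted p = 0.0807) or WT library 2 at 7 d (-0.48, 0.121). With an absolute log2 fold change above 1 as a further bar, 2 genes were called, Cd14 and Tlr9, against 7.06% of all genes. For Tlr2 the difference between days was -0.03 (95% interval -0.57 to 0.52). Over the same days 4 of 9 microglia markers were called higher.

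In Fgg γ390–396A microglia, Cd14 was called between 7 d and 1 d, at 107, 123 and 97.7 CPM on the later day, with a log2 fold change of -2.24 (SE 0.45, adjusted p = 0.00418). It was the 1 gene of the 10, with 5.64% of all genes called (1.08% higher and 4.56% lower), and groups did not overlap for 5 (27.3% of all genes). Tlr9 was at 92.1, 64.5 and 63.4 CPM at 7 d, above all 1 d libraries, with a log2 fold change of 1.10 (SE 0.34, adjusted p = 0.0635). Without mutant library 1 at 1 d it was called (1.33, adjusted p = 0.0397). In this genotype edgeR called 0 of 9 microglia markers between the days, with 2 at an unadjusted p under 0.05, and DESeq2 called 1.

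The second question was how infiltrating myeloid cells differ from the microglia of the same genotype at 1 d post-CCI. Libraries of both cell types may share pools of brains, and the fit treated them as independent. Tlr3, Tlr7 and Tlr1 were lower and Tlr4 higher in the myeloid cells of both genotypes. In WT mice 4 of 10 genes were called, against 15.7% of all genes tested (7.56% higher and 8.12% lower), and groups did not overlap for 6 (29.2% of all genes). In Fgg γ390–396A mice 4 of 10 were called, against 21.4% of all genes (9.33% higher and 12.1% lower), and groups did not overlap for 4 (32.1% of all genes). With an absolute log2 fold change above 1 as a further bar, 2 were called in mutant mice, Tlr3 and Tlr7, against 16.7% of all genes. The median log2 fold change of the 10 genes was -0.06 in WT and 0.33 in mutant mice, and that of all genes tested 0.00 and -0.13. For genes with a mean of at least 5 CPM it was 0.01 and -0.02.

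Tlr3 was at 4.93, 4.74 and 3.61 CPM in WT myeloid libraries and at 6.05, 8.29 and 16.0 CPM in mutant ones. Every myeloid library of Tlr3 was below every microglia library, with a log2 fold change of -2.41 in WT (SE 0.30, adjusted p = 1.1e-05) and -1.77 in mutant mice (SE 0.29, adjusted p = 0.000161). Tlr7 was at 70.9, 95.8 and 79.6 CPM in WT and 103, 149 and 132 CPM in mutant myeloid cells, below the microglia of both genotypes, which ranged from 191 to 328 CPM. Its log2 fold change was -1.74 in WT (SE 0.21, adjusted p = 9.57e-06) and -1.01 in mutant mice (SE 0.21, adjusted p = 0.00151). Tlr1 was at 36.0, 32.4 and 30.3 CPM in WT and 32.9, 35.9 and 36.8 CPM in mutant myeloid cells, within or close to the range of sham microglia. Against injured microglia its log2 fold change was -1.04 in WT (SE 0.18, adjusted p = 0.000313) and -0.87 in mutant mice (SE 0.18, adjusted p = 0.00132).

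Tlr4 was at 115, 81.7 and 168 CPM in WT myeloid cells, above the WT microglia, with a log2 fold change of 0.80 (SE 0.20, adjusted p = 0.0102). This call was lost without WT myeloid library 3 (0.49, adjusted p = 0.0992). In mutant mice Tlr4 was at 115, 143 and 119 CPM, above the mutant microglia, with a log2 fold change of 0.59 (SE 0.20, adjusted p = 0.044). That call was lost without mutant microglia library 1 (adjusted p = 0.0901), 2 (0.0851) or 3 (0.122) and without mutant myeloid library 2 (0.144) or 3 (0.0582). Tlr2 was at 117, 124 and 171 CPM in WT myeloid cells, above the WT microglia, with a log2 fold change of 0.70 (SE 0.26, adjusted p = 0.0801), and it was called with DESeq2's size factors (0.77, adjusted p = 0.0429). Cd14 was high in both cell types, at 629, 642 and 1020 CPM in WT and 228, 959 and 872 CPM in mutant myeloid cells, with log2 fold changes of -0.24 (95% interval -1.14 to 0.65) and 0.41 (-0.48 to 1.31). Mutant myeloid library 1 stood far below libraries 2 and 3 for Cd14, and library 1 was the lowest for Cd14 in every group at 1 d.

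**Figure D4:**
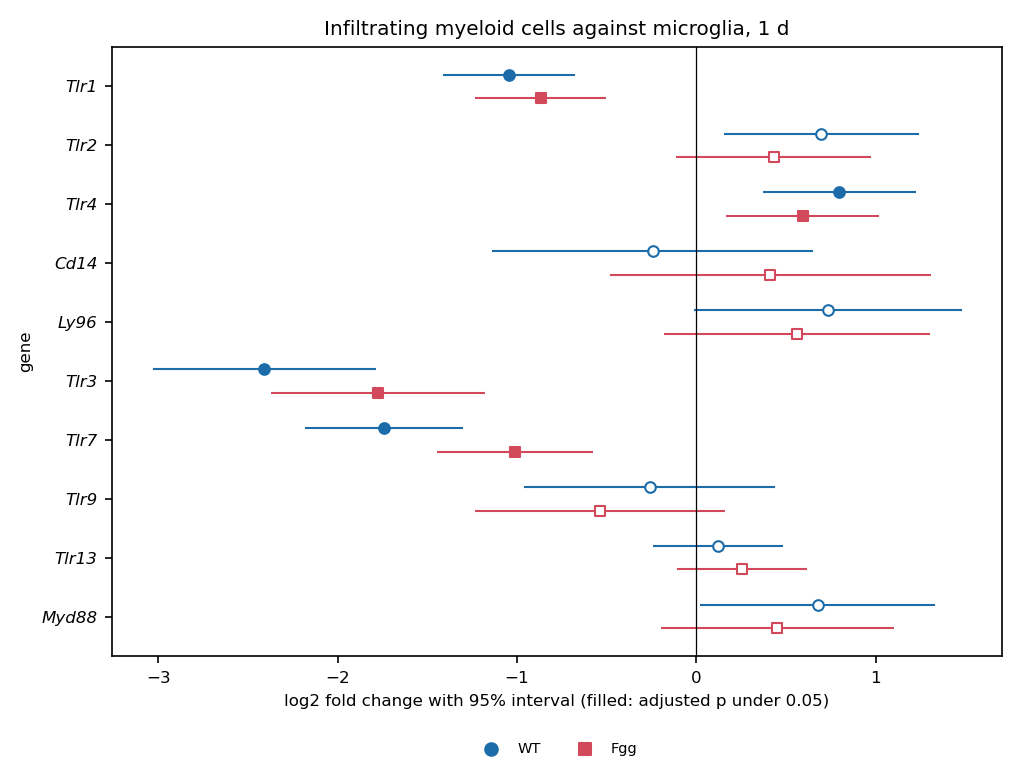
Log2 fold change of myeloid cells against microglia at 1 d for the 10 genes in WT and Fgg γ390–396A mice, with 95% intervals and filled points for an adjusted p under 0.05. Tlr3, Tlr7 and Tlr1 lie below 0 and Tlr4 above it in both genotypes.

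The remaining genes were not called between the cell types. Tlr9 was between 9.25 and 33.5 CPM and Tlr13 between 153 and 192 CPM over the 6 myeloid libraries. Myd88 reached 28.8 CPM in mutant myeloid library 3 and was 21.3, 13.8 and 20.7 CPM in the WT myeloid libraries. The surface receptors Tlr1, Tlr2 and Tlr4 made up 50.8% ± 5.58 (SD, n = 3) of the summed CPM of the 7 receptors in WT and 42.9% ± 3.56 in mutant myeloid cells. In microglia that share was 23.9% ± 1.17 in sham controls, 31.9% ± 1.82 in WT and 31.3% ± 1.46 in mutant mice at 1 d, 28.1% ± 1.53 in WT mice at 7 d, and between 26.5% and 29.9% in the mutant libraries at 7 d. The myeloid libraries were the highest of all 21 by this measure. The sum leaves out Tlr8, an endosomal receptor at 63.8 to 129 CPM in myeloid cells and 0.351 to 19.2 CPM in microglia. With Tlr8 in the sum the surface share would be lower, and more so in the myeloid cells. Beside these differences, all 9 microglia markers were called lower and all 8 monocyte markers higher in the myeloid cells of both genotypes, and the dissociation-response genes, 9 immediate early genes that cell isolation can induce, summed to 1647 to 4466 CPM against 251 to 1502 in microglia. Their part in the result was not tested.

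The third question was whether receptor expression differs between Fgg γ390–396A and WT mice after injury. Genotype contrasts were called at an adjusted p under 0.1, and edgeR called 0 of the 10 genes in microglia at 1 d, 0 in microglia at 7 d and 0 in myeloid cells. Of all genes tested, 0.0546%, 0.0378% and 0.495% were called, respectively. At an unadjusted p under 0.05 the counts were 0, 2 and 3 (5.08%, 3.34% and 11.5% of all genes), and DESeq2 called 0, 0 and 2.

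In microglia at 1 d, the libraries of both genotypes did not overlap for 2 genes, Tlr3 and Tlr4, both higher in mutant mice, as was so for 8.72% of all genes. Tlr3 was at 37.7, 30.6 and 35.9 CPM in mutant against 24.2, 25.8 and 20.8 CPM in WT microglia, with a log2 difference of 0.56 (95% interval -0.02 to 1.14, adjusted p = 0.89). Tlr4 was at 85.2, 86.0 and 78.2 CPM in mutant microglia, with a log2 difference of 0.25 (95% interval -0.18 to 0.68). Cd14 differed by -0.81 (95% interval -1.71 to 0.09, adjusted p = 0.89), and its libraries overlapped because WT library 1, at 391 CPM, lay within the mutant range. Summed microglia markers did not overlap either, at 2755 to 4269 CPM in WT and 4834 to 6290 CPM in mutant microglia, where edgeR called 0 of the 9 between genotypes, 4 had an unadjusted p under 0.05 and DESeq2 called 1, and their part in the values of Tlr3 and Tlr4 was not tested. A genotype difference in Cd14 was not called at this spread, and its interval reaches values larger than a log2 difference of 1. By library number, Cd14 was at 313, 632 and 602 CPM in mutant and at 391, 1028 and 1291 CPM in WT microglia. Library 1 was thus the lowest in both genotypes, and library numbers were not treated as pairing.

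In microglia at 7 d, Tlr2, Tlr7 and Ly96 were lower in every mutant library than in every WT library, 3 of 10 genes against 11.1% of all genes. Ly96 was at 32.6, 31.8 and 27.4 CPM in mutant and 56.3, 81.4 and 50.1 CPM in WT microglia, with a log2 difference of -1.03 (95% interval -1.78 to -0.28, adjusted p = 1). For Tlr2 the log2 difference was -0.59 (95% interval -1.13 to -0.04, adjusted p = 1), and for Tlr7 it was -0.23 (-0.66 to 0.20). These intervals are not adjusted for the number of genes, and none of the 3 was called.

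In myeloid cells, Tlr3 and Tlr7 were higher in every mutant library than in every WT library, 2 of 10 genes against 8.02% of all genes. The main fit called 0 of the 10. With DESeq2's size factors, filterByExpr or no count filter 1 was called, and with DESeq2's test 2. The log2 difference of Tlr3 was 1.19 (SE 0.29, 95% interval 0.59 to 1.80, adjusted p = 0.102). It passed 0.1 without mutant myeloid library 1 (1.51, adjusted p = 0.015), and without mutant myeloid library 3, the highest, it was 0.70. The microglia markers summed to 345 to 647 CPM in WT and 565 to 964 CPM in mutant myeloid cells, and their part in the result was not tested. Tlr7 had a log2 difference of 0.64 (95% interval 0.21 to 1.07, adjusted p = 0.245) and passed 0.1 without mutant myeloid library 1 (0.83, adjusted p = 0.0926). Tlr2 was at 66.0, 73.9 and 124 CPM in mutant against 117, 124 and 171 CPM in WT myeloid cells, with a log2 difference of -0.64 (95% interval -1.19 to -0.10, adjusted p = 0.358), and passed 0.1 without mutant myeloid library 3 (-0.97, adjusted p = 0.0772).

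**Figure D5:**
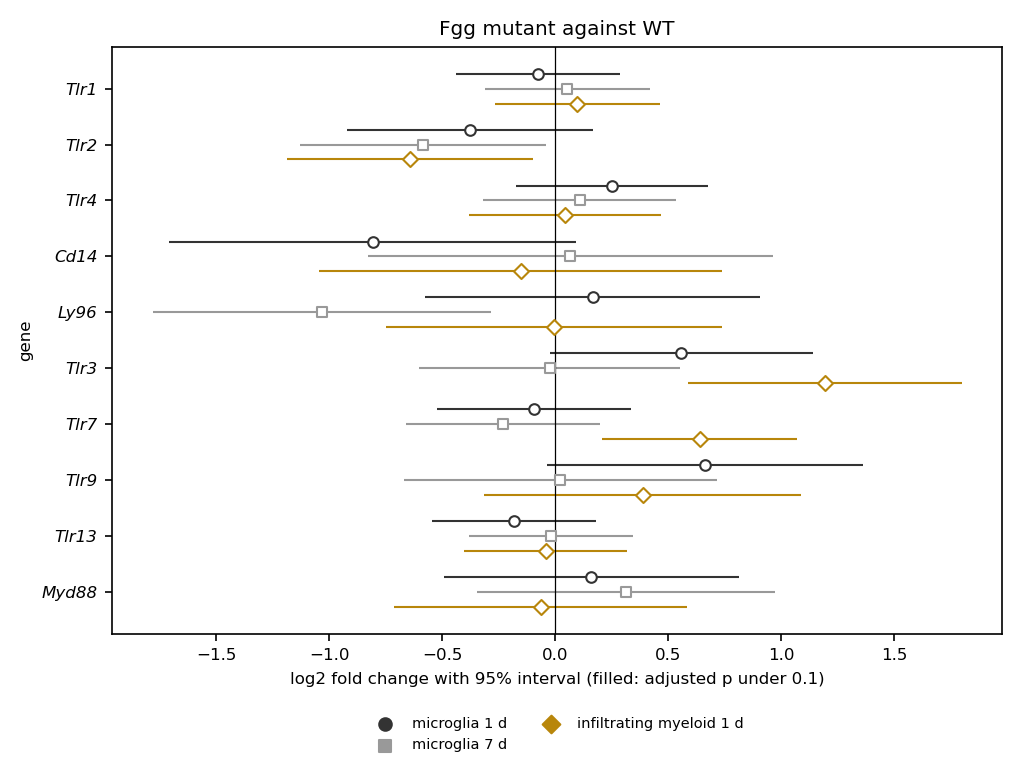
Log2 difference between Fgg γ390–396A and WT mice of the 10 genes in microglia at 1 d and 7 d and in myeloid cells at 1 d, with 95% intervals. Filled points would mark an adjusted p under 0.1, and no point is filled.

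Averaged over the 3 pairs of groups, a contrast added after the data were seen, edgeR called 0 of the 10 genes, with 0.21% of all genes called, and 2 genes had an unadjusted p under 0.05 (9.09% of all genes). These were Tlr2, with a log2 difference of -0.54 (95% interval -0.85 to -0.22, adjusted p = 0.251), and Tlr3, with 0.58 (0.24 to 0.91, adjusted p = 0.253). DESeq2 called both (adjusted p = 0.025 and 0.0378). Microglia and myeloid libraries at 1 d may share pools of brains, whereas the fit treated all libraries as independent, so these intervals may be too narrow. Without mutant myeloid library 3 Tlr2 was called by edgeR (-0.65, adjusted p = 0.0591), and without mutant myeloid library 1 Tlr3 was (0.68, adjusted p = 0.074). In the same contrast 1 of the 9 microglia markers was called higher in mutant mice and all 9 had an unadjusted p under 0.05, 8 of them higher, and their part in the result for Tlr3 was not tested. Tlr2 lies on chromosome 3 at 83836272 to 83841767, 821 kb from the mutated Fgg gene. The Fgg allele and sequence linked to it on the chromosome therefore cannot be told apart for Tlr2 in any of the genotype contrasts. Of 89 genes tested within 5 Mb to either side of Fgg, Fgg itself among them, 4 were called in the mean contrast and 2 in each of the 3 pairs. Of all genes tested, 0.21% were called in the mean contrast. In the pairs the share was 0.0546% in microglia at 1 d, 0.0378% in microglia at 7 d and 0.495% in myeloid cells. Tlr2 was not called in any of these contrasts.

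The genotype effect itself was compared between days in microglia and between cell types at 1 d by interaction terms. Of the 10 genes edgeR called 0 in each, with 1 at an unadjusted p under 0.05 in each (Ly96 between days and Tlr7 between cell types), and DESeq2 called 0 in each. Of all genes, 0% and 0.0462% were called, and 2.74% and 8.37% had an unadjusted p under 0.05. Ly96 had an interaction of -1.20 on the log2 scale (95% interval -2.25 to -0.14, adjusted p = 1). For Tlr7 it was 0.73 (0.12 to 1.34, adjusted p = 0.539). The term for cell types also treated libraries that may share pools of brains as independent.

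The other Toll-like receptor genes were at lower levels in microglia. Tlr8, an endosomal receptor for RNA, was between 63.8 and 129 CPM in the myeloid cells and between 0.351 and 19.2 CPM in all microglia, with a log2 fold change of 4.62 in WT (SE 0.85, adjusted p = 0.000652) and 4.60 in mutant mice (SE 0.83, adjusted p = 0.000496). Its direction between the cell types was opposite to that of Tlr7 and Tlr3. Tlr5, the flagellin receptor, was at 16.3, 24.1 and 18.6 CPM in sham and 8.05, 3.94 and 8.74 CPM in WT microglia at 1 d, with a log2 fold change of -1.51 (SE 0.32, adjusted p = 0.00237). Tlr12, a receptor for profilin of Toxoplasma, was at 0.46 CPM or less in all myeloid libraries and between 1.33 and 11.2 CPM in all microglia, and its log2 fold change between the cell types was -3.52 in mutant mice (SE 0.72, adjusted p = 0.00142). Tlr6, the other partner of Tlr2, was between 10.5 and 24.2 CPM in microglia. In myeloid cells Tlr6 was at 20.2, 12.5 and 19.5 CPM in WT and 3.84, 4.94 and 12.8 CPM in mutant mice, which overlap. It was called lower in mutant myeloid cells than in mutant microglia (-1.05, SE 0.34, adjusted p = 0.0313), and that call was lost without mutant microglia library 1 (adjusted p = 0.103) or 2 (0.0629), without mutant myeloid library 1 (0.207) or 2 (0.128), and with only the compared groups in the fit (0.212). Between genotypes in myeloid cells its log2 difference was -1.27 (SE 0.34, adjusted p = 0.157), and it passed 0.1 without mutant myeloid library 3 (-1.99, adjusted p = 0.00169) and with DESeq2 (-1.25, adjusted p = 0.0168). Tlr11 did not pass 2.71 CPM in any library.

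The genes of the pathway that follow were counted list by list. Earlier results of these data were known when the lists were chosen. Their counts and directions beside the shares of all genes are therefore descriptions and not independent tests. Against sham, 10.7% of all genes were called higher and 5.97% lower in WT microglia at 1 d, and 7.6% and 2.19% in mutant microglia at 1 d. At 7 d, 2.69% of all genes were called in WT and 0.886% in mutant microglia. Between the cell types 7.56% were called higher and 8.12% lower in WT and 9.33% and 12.1% in mutant mice.

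Proteins that fold and carry the receptors were counted with the other co-receptors in a list of 10 genes, of which 4 were called higher and 1 lower in WT microglia at 1 d and 3 higher and 1 lower in mutant microglia, all against sham (16.7% and 9.79% of all genes were called). DESeq2 called 7 and 5 of the 10. The lower gene was Unc93b1 in both, whose product escorts the endosomal receptors out of the endoplasmic reticulum. Unc93b1 was at 228, 232 and 278 CPM in sham and 134, 147 and 116 CPM in WT microglia at 1 d, which do not overlap, with a log2 fold change of -0.89 (SE 0.16, adjusted p = 0.000425). At 7 d it was 262, 239 and 258 CPM in WT microglia, with a log2 fold change against 1 d of 0.93 (SE 0.16, adjusted p = 0.000588). Like Tlr9, Unc93b1 was lowest at 1 d among these 3 groups. Hsp90b1, the chaperone gp96 that folds Toll-like receptors, was higher in WT microglia at 1 d, with a log2 fold change of 1.03 (SE 0.18, adjusted p = 0.000361). Between cell types the same list had 1 gene higher and 5 lower in WT myeloid cells and 2 higher and 5 lower in mutant ones, among them Ly86 (-2.68 in WT, SE 0.27, adjusted p = 1.25e-06) and Cd180 (-1.97, SE 0.20, adjusted p = 1.63e-06), which form a receptor complex related to MD-2 and TLR4.

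Of 26 adaptors and kinases, 4 were called higher and 6 lower in WT microglia at 1 d against sham, and 3 higher and 2 lower in mutant microglia, where 16.7% and 9.79% of all genes were called. DESeq2 called 14 and 9 of the 26 where edgeR called 10 and 5. Irak2, a kinase of the MyD88 complex, had a log2 fold change of -1.33 in WT (SE 0.20, adjusted p = 0.000103) and -1.04 in mutant microglia (SE 0.20, adjusted p = 0.00158). Ikbke, which phosphorylates interferon regulatory factors, was higher in WT microglia at 1 d by 3.68 on the log2 scale (SE 0.57, adjusted p = 0.00011). At 7 d 2 genes of this list were called higher and 0 lower in each genotype, and one of them was Irf7, a transcription factor of interferon genes, at 23.1, 36.6 and 36.1 CPM in WT microglia against 2.04 ± 0.566 CPM (SD, n = 3) in sham controls (3.96, SE 0.54, adjusted p = 0.000332). In myeloid cells 9 of the 26 were called higher and 0 lower in WT and 7 higher and 1 lower in mutant mice. Of 12 inhibitors, 1 was called higher and 1 lower in WT microglia at 1 d. In mutant microglia at 1 d edgeR called 0 of the 12, with 2 at an unadjusted p under 0.05 and 2 called by DESeq2. Between cell types 6 inhibitors were higher and 1 lower in WT and 7 higher and 3 lower in mutant myeloid cells, led by Irak3 (2.18 in WT, SE 0.35, adjusted p = 0.000189) and Tnip1 (2.05, SE 0.33, adjusted p = 0.000194), which restrain kinases and NF-kB downstream of the receptors. Of all genes 15.7% were called between the cell types in WT and 21.4% in mutant mice, and DESeq2 called 8 and 12 of the 12 inhibitors.

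Of 10 genes listed as output of the MyD88 arm, 6 were called higher and 0 lower in WT microglia at 1 d, 3 higher and 0 lower in mutant microglia at 1 d, and 1 higher in each genotype at 7 d. At 1 d 10.7% of all genes were called higher in WT and 7.6% in mutant microglia. DESeq2 called 6 of the 10 in WT and 5 in mutant microglia at 1 d, and 3 and 1 at 7 d, and at an unadjusted p under 0.05 edgeR gave 7 and 6 at 1 d, so the counts of the genotypes at 1 d were closer than 6 and 3 by either measure. Tnf was at 66.2, 51.1 and 46.2 CPM in WT microglia at 1 d against 4.62, 1.78 and 1.06 CPM in sham, with a log2 fold change of 4.46 (SE 0.52, adjusted p = 5.81e-06). Ptgs2, which encodes cyclooxygenase 2, was at 27.6, 32.2 and 48.5 CPM in WT and 4.86, 6.42 and 12.5 CPM in mutant microglia at 1 d, where sham libraries held 3 to 12 counts. Between genotypes Ptgs2 was the 1 gene of all 82 pathway genes called at 1 d in microglia (-2.20, SE 0.40, adjusted p = 0.063), and that call was lost without mutant library 1 (adjusted p = 0.337) or 2 (0.423) and without WT library 2 (0.116) or 3 (0.462). Of the 82, edgeR called 0 between genotypes at 7 d (3 at an unadjusted p under 0.05, 0 by DESeq2) and 0 in myeloid cells (14 and 4). In myeloid cells 5 of the 10 output genes had an unadjusted p under 0.05, 0 of them higher in mutant mice, against 11.5% of all genes. In the mean genotype contrast, added after the data were seen, 7 of the 10 did, 0 of them higher, against 9.09%. There edgeR called 1 of the 82, Ptgs2 (-1.38, SE 0.26, adjusted p = 0.032), and DESeq2 called 6. Between cell types 4 output genes were called higher and 0 lower in WT and 4 higher and 1 lower in mutant myeloid cells, among them Il1b (4.56 in WT, SE 0.62, adjusted p = 3.25e-05).

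Of 8 genes of the TRIF and interferon arm, 5 were called higher and 1 lower in WT microglia at 1 d and 6 higher in mutant microglia at 1 d. At 7 d 6 were called higher in WT and 5 in mutant microglia, with 0 lower in both. Of all genes 10.7% were called higher and 5.97% lower in WT and 7.6% higher in mutant microglia at 1 d, and 2.69% and 0.886% were called at 7 d. DESeq2 called 6 of the 8 in each of these 4 comparisons. Between genotypes in myeloid cells edgeR called 0 of the 8 and DESeq2 1. There 4 had an unadjusted p under 0.05 with edgeR, all 4 higher in mutant mice, against 11.5% of all genes. The chemokine gene Ccl5 had a log2 fold change against sham of 3.29 at 1 d (SE 0.52, adjusted p = 0.000147) and 4.56 at 7 d (SE 0.55, adjusted p = 8.66e-05) in WT microglia. In mutant microglia its log2 fold change was 3.11 at 1 d (SE 0.52, adjusted p = 0.000453) and 4.03 at 7 d (SE 0.54, adjusted p = 0.000801). Of 11 endogenous ligands of the receptors, 3 were called higher in the microglia of each genotype at 1 d, among them Hspd1, the mitochondrial chaperone HSP60 (2.22 in WT, SE 0.23, adjusted p = 2.08e-06). Over all 82 pathway genes, 23 were called higher and 11 lower in WT microglia at 1 d, 18 and 4 in mutant microglia at 1 d, 10 and 1 in WT at 7 d, and 8 and 0 in mutant mice at 7 d. These totals of 34, 22, 11 and 8 compare with 16.7%, 9.79%, 2.69% and 0.886% of all genes, and DESeq2 called 41, 33, 18 and 10 of the 82. The comparisons with sham share the same 3 sham libraries.

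Across the 21 libraries, the genes whose log2 CPM was most like that of a receptor were named by Pearson's r among 7803 genes with a mean of at least 5 CPM. The libraries fall into groups that differ in cell type, day and injury, so the values are descriptions. Tlr3 was most like P3h2 (r = 0.985), Lrrc3 (0.971) and Ppp1r9a (0.970), and Tlr7 was most like C1qc (0.968), Asph (0.964) and Creb3l2 (0.963). Tlr9 was most like Maml2 (0.968), Nbr1 (0.951) and Calhm2 (0.949). For Cd14 they were Heatr1 (0.980), Sdc4 (0.976) and Glrx (0.971), for Tlr2 Csf1 (0.924), Smim3 (0.899) and Il2rg (0.896), and for Tlr1 Gatm (0.903), Tpp2 (0.894) and Cul4b (0.894). Values for Tlr4 (Txnip, 0.860), Tlr13 (Pak2, 0.938), Myd88 (Katna1, 0.921) and Ly96 (Erbin, 0.698) were lower at the top than for Tlr3, and that of Ly96 was the lowest of the 10. Within the 10 genes, Tlr3 went with Tlr7 (r = 0.919), and Tlr9 went against Cd14 (r = -0.938).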

How the data were processed

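RNA-seq of 21 libraries of sorted mouse microglia and infiltrating myeloid cells was analysed. The authors ran salmon through nf-core/rnaseq with the GRCm38 genome. They deposited its expected counts for each gene, scaled so that gene length is divided out within a library and not normalized between libraries. The submitters' processing notes also name R 4.2.0 and DESeq2 1.36.0. Groups came from the column names, which match 1 library each. RNA was amplified from low input before sequencing. The high share of ribosomal RNA leaves fewer counts for other genes.

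Expected counts were rounded to whole counts. Of 45706 identifiers 45143 matched GENCODE M21. A sum of at least 5 counts over the libraries was required, which left 23815 genes. All libraries were fitted together with edgeR 4.0.16 and limma 3.58.1 under R 4.3.3 (1 mean per group, TMM factors, Benjamini-Hochberg adjustment, functions glmQLFit and glmQLFTest). Standard errors and 95% intervals were derived from the quasi-likelihood F statistic. Over genes the common coefficient of biological variation was 0.643. Calls needed an adjusted p under 0.05, or under 0.1 for genotype contrasts and interactions, with no bar on the fold change. Depth limits precision, since 3 counts correspond to 0.0448 to 0.158 CPM, for counting error only. Levels, motifs and markers were computed in Python 3.11.15 with pandas 2.3.3 and numpy 2.4.6. The fit was also run on simulated data, of which no result or error rate is given here.

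The 10 genes and all gene lists were chosen with earlier results of these data known. All 10 were named in every comparison. Of the 7 pathway lists (82 genes), up to 2 called genes a direction with the smallest adjusted p, and every listed receptor, could be named, as could the 3 genes most like each of the 10. Alternatives were DESeq2 1.42.0 (Wald test), its size factors in edgeR, removal of ribosomal RNA genes, filterByExpr, no count filter, a block for the replicate number, fits restricted to the compared groups, bars on the fold change and leaving out each library. The mean genotype contrast was added after the data were seen.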

Additional observations from a re-analysis of the deposited data

How the results depend on the processing

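Of 2323 values of 175 fold changes under alternatives, 2145 kept their direction and side of the threshold, 137 lost a call, 34 gained one and 7 changed sign. The 7 belong to 3 log2 fold changes near 0, none of them called. That of Tlr2 between 7 d and 1 d in WT microglia was 0.0617 with DESeq2's size factors and 0.0617 with DESeq2's test, and ran from -0.157 to 0.0289 when 1 library was left out. That of Tlr7 in WT microglia at 1 d against sham ran from -0.258 to 0.0754 and that of Cd14 between WT myeloid cells and microglia from -0.602 to 0.157 when 1 library was left out. The count of the 10 genes called moved by over 1.5 times in the cases given next, and the cause was not tested except for bars on the fold change, which remove calls by construction. In WT microglia at 1 d against sham it was 2 with a log2 fold change above 1.5. In mutant microglia at 1 d it was 2 to 4 when 1 library was left out. In WT microglia between 7 d and 1 d it was 2 with a log2 fold change above 1 and 2 to 4 when 1 library was left out. In mutant microglia between 7 d and 1 d it was 2 with DESeq2's size factors, filterByExpr, the replicate block, the compared groups only or DESeq2's test, and 1 to 2 when 1 library was left out. Between mutant myeloid cells and microglia it was 2 with a log2 fold change above 1. Between genotypes in myeloid cells it was 1 with DESeq2's size factors, filterByExpr or no filter, 2 with DESeq2's test and 0 to 2 when 1 library was left out. For the mean genotype effect it was 2 with DESeq2's test and 0 to 1 when 1 library was left out.

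Replicate numbers were not treated as pairing, because 0 of 11 comparisons had a correlation over 0.1 in every pair (mean r 0.0376 for the same number and -0.0188 for other numbers over 7831 genes). As a hint from the data, 15 of 21 libraries correlated best with their own number. Between genotypes in microglia at 1 d, r was 0.426, 0.214 and 0.0992 for the same number, close to that bar. The other numbers gave -0.271, -0.0607 and -0.0312. Between WT myeloid cells and microglia the same number gave 0.191, 0.176 and 0.0528. For mutant microglia at 1 d against sham it gave -0.0519, -0.0350 and -0.101. Whether libraries of the same number share a batch or pool was not tested. With the replicate block 2 of the 10 genes were called in mutant microglia between 7 d and 1 d, Tlr9 being added, and the count changed in no other comparison. Without ribosomal RNA genes, CPM were 2.03 times as high at the median.

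Counts over all genes depended on the tool. DESeq2 called 131 genes between genotypes in microglia at 1 d where edgeR called 13, 90 against 9 at 7 d, 1102 against 118 in myeloid cells and 532 against 50 for the mean. With the replicate block edgeR called 72 in myeloid cells. Beyond that, DESeq2 called 1323 against 640 and 585 against 211 genes at 7 d against sham in WT and mutant microglia, 3564 against 2332 in mutant microglia at 1 d, 3901 against 2451 and 2365 against 1343 between the days, and 33 against 0 and 259 against 11 for the interactions.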
